A study of Mus musculus with 3 samples.

Results

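Liver gene expression was compared between apolipoprotein E-deficient male mice fed either of the main isomers of conjugated linoleic acid (CLA), t10,c12-CLA or c9,t11-CLA. The comparison is the log2 signal of the array labelled trans10,cis12CLA minus that of the array labelled cis9,trans11CLA, so a positive value means a higher signal with t10,c12-CLA. Of 8251 genes represented on the array, 4382 had a signal above 490.3 on both CLA arrays and were measured. That floor is the pooled median of all signals on the 3 arrays of the series, set because dim signals cannot be told from background. All animals were homozygous apoE knockouts on a C57BL/6JxOLA129 background, 3 months old at the start and fed for 12 weeks. The t10,c12-CLA and c9,t11-CLA groups received 1.0% by weight of the named isomer in a semi-purified diet with 30% of its energy as fat, and the control group received linoleic acid in its place. The sample labels speak of a western diet instead. Of 29 mice, 9 were assigned to t10,c12-CLA, 10 to c9,t11-CLA and 10 to control. A single array per diet was analysed, and the sources used here do not state whether its RNA came from 1 mouse or a pool. There was therefore no replicate, no test between the isomers was possible, and every difference below compares a pair of arrays. The control array took no part in the comparison, and its signals are given beside the named genes as a reference level.

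Both isomers are octadecadienoic acids whose double bonds are conjugated. In c9,t11-CLA a cis bond precedes a trans bond. In t10,c12-CLA the trans bond comes first and the pair lies a carbon further from the carboxyl end. Fatty acids and their derivatives bind PPARA, the nuclear receptor that in rodent liver switches on genes of peroxisomal, microsomal and mitochondrial fatty acid oxidation. The same cells secrete most plasma proteins. Part of that output, the acute phase proteins, is raised by interleukin 6 and related cytokines through the transcription factor STAT3. Another part of liver expression differs between the sexes and depends on the pulses of growth hormone and on STAT5B.

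Among the 4382 measured genes, 152 (3.47%) had at least a 2-fold higher signal with t10,c12-CLA and 112 (2.56%) at least a 2-fold lower signal, 6.02% in all. The median log2 difference was -0.05, and the quartiles lay at -0.36 and 0.27. In direction alone, 2004 genes (45.7%) were higher with t10,c12-CLA and 2377 lower, which is the reference for the counts by direction below. With the medians of the arrays made equal, which moved every gene up by 0.11, the counts were 207 higher and 69 lower. The disagreement between the probe sets of 553 genes that had a second measured one corresponded to an SD of 0.49 per log2 value. The SD over all measured genes was 0.55, little wider than this yardstick, which itself holds no variation between mice. Differences of at least 4-fold were found for 15 genes higher and 7 genes lower with t10,c12-CLA.

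The arrays differed in their brightest signals, and this touches several gene groups below. Trimmed means were equal at 1501, but the highest signal was 135007 with c9,t11-CLA and 71111 with t10,c12-CLA. With the measured genes in 4 equal classes of brightness, the median log2 difference was -0.12 in the dimmest class and 0.00 in the brightest, but -0.44 over the 100 brightest genes, of which none was 2-fold higher and 6 were 2-fold lower. After quantile normalization, which gives the arrays the same distribution, the median of these 100 genes was 0.00. Values after quantile normalization are given below where it moved a median, a direction or a 2-fold call of a group or gene described at length. They cover the genes measured in the signals as deposited, a choice made after seeing the data. The closing section gives the medians that moved in the planned version, with the floor taken after normalization. The ratio of 3′ to 5′ signal, a sign of RNA integrity, was 0.98 with c9,t11-CLA and 0.78 with t10,c12-CLA for Gapdh, and 1.89 and 1.35 for Actb. Among 9 probe sets for spike controls, which are not liver transcripts, the lowest ratio of t10,c12-CLA to c9,t11-CLA signal was 0.58. It belonged to CreX-5, with 53130 on the c9,t11-CLA and 31068 on the t10,c12-CLA array. CreX-3 gave 76399 and 44856 in the same order, and BioB-M, with the highest ratio, 3184 and 3501. The 18S ribosomal RNA probe sets gave 2640 and 1226 (3′), 2017 and 494 (5′), and 989 and 101 (middle). The part of array brightness and RNA integrity in the differences was not tested.

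**Figure D1:**
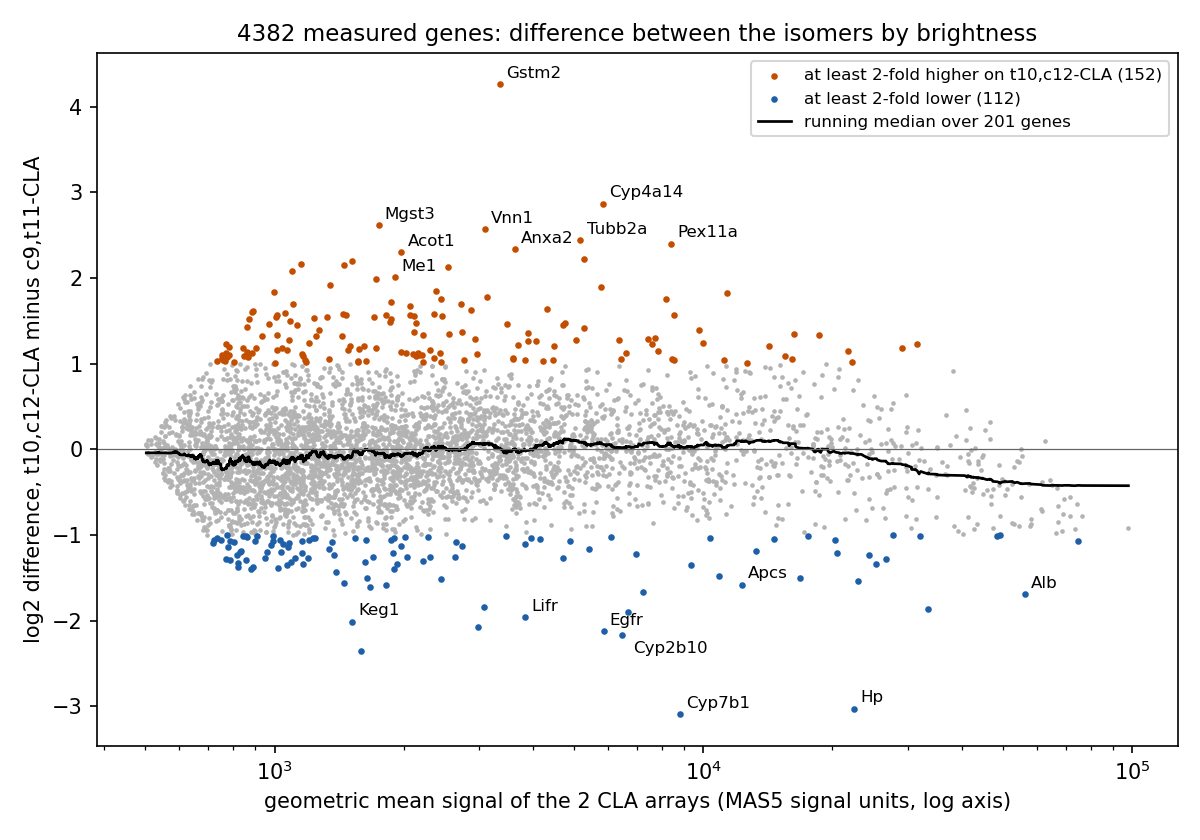
Log2 difference in signal (t10,c12-CLA minus c9,t11-CLA, 1 array each) of the 4382 measured genes against their geometric mean signal on a log axis; orange and blue points are the 152 and 112 genes past 2-fold, and the black line is a running median. The line runs near 0 over most of the range and drops below 0 among the brightest genes.

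Genes of peroxisomal and omega oxidation were the group with the highest median. Of 19 measured genes, 17 were higher with t10,c12-CLA. Past 2-fold were 11 in that direction and 0 in the other, against 3.47% and 2.56% of all measured genes, and the median log2 difference was 1.04. After quantile normalization 18 of 19 were higher, 9 past 2-fold, with a median of 1.00. Cyp4a14, a microsomal enzyme that hydroxylates the omega end of fatty acids, gave 2161 with c9,t11-CLA and 15776 with t10,c12-CLA, with 13225 on the control array, and its difference was 2.87, a 7.30-fold higher signal. Vnn1, a pantetheinase of coenzyme A breakdown, gave 1270 and 7533, with 5274 on control. Pex11a, a membrane protein that drives division of peroxisomes, gave 3659 and 19301, with 8687 on control. Acot1, a cytosolic acyl-CoA thioesterase, gave 891 and 4387, with 4243 on control. In each of these 4 genes the c9,t11-CLA array was the low one, and the t10,c12-CLA signal stood above the control signal.

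The c9,t11-CLA array was the lowest of the 3 in 17 of the 19 genes, a count not made for all measured genes. Core enzymes of the peroxisomal spiral were among the 17. Ehhadh, the bifunctional hydratase and dehydrogenase, differed by 1.47 and Hsd17b4, its counterpart for branched chains, by 1.15. Crat, which moves short acyl groups onto carnitine, differed by 1.58, Aldh3a2, a fatty aldehyde dehydrogenase, by 1.83, and Pex19, an import receptor for peroxisomal membrane proteins, by 1.70. The isomerases Ech1 and Eci2 both differed by 1.04, and by 0.97 and 1.00 after quantile normalization, just under 2-fold. The thiolases differed less, with Acaa1b at 0.46 and Acaa1a at -0.17, and Phyh, the phytanoyl-CoA hydroxylase of alpha oxidation, stood at -0.58, or 0.16 after quantile normalization. Cyp4a10 stood at 0.64. The control signal lay nearer to the t10,c12-CLA than to the c9,t11-CLA signal in 18 of the 19 genes, compared with 55.7% of all measured genes.

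Genes of mitochondrial beta-oxidation differed less. Of 17 measured genes, 13 were higher with t10,c12-CLA, and the median was 0.51. Past 2-fold were 2 upwards and 0 downwards, against 3.47% and 2.56% of all measured genes. After quantile normalization 14 were higher, 3 of them past 2-fold, with a median of 0.46. The largest differences were those of Etfdh, which passes electrons from beta-oxidation to the respiratory chain, at 1.06 (2493 and 5189 with c9,t11-CLA and t10,c12-CLA, 7430 on control) and Acadm, the medium-chain acyl-CoA dehydrogenase, at 1.02 (15609 and 31617, 25741 on control). Pdk4, the kinase that turns off pyruvate dehydrogenase, stood at 0.97 and the carnitine carrier Slc25a20 at 0.84. Cpt1a and Cpt2, the carnitine palmitoyltransferases that admit fatty acids to the mitochondrion, stood at 0.11 and 0.15, and the carnitine transporter Slc22a5 at 0.74. Echs1, an enoyl-CoA hydratase, stood at -0.61, and Acaa2, a thiolase with signals of 75185 and 56139, at -0.42, a direction that turned to 0.24 after quantile normalization. In Etfdh, Slc25a20 and Hadh both CLA arrays lay below control, and the c9,t11-CLA array was the lower. Ppara itself stood at 0.44 and its partner Rxra at 0.03.

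**Figure D2:**
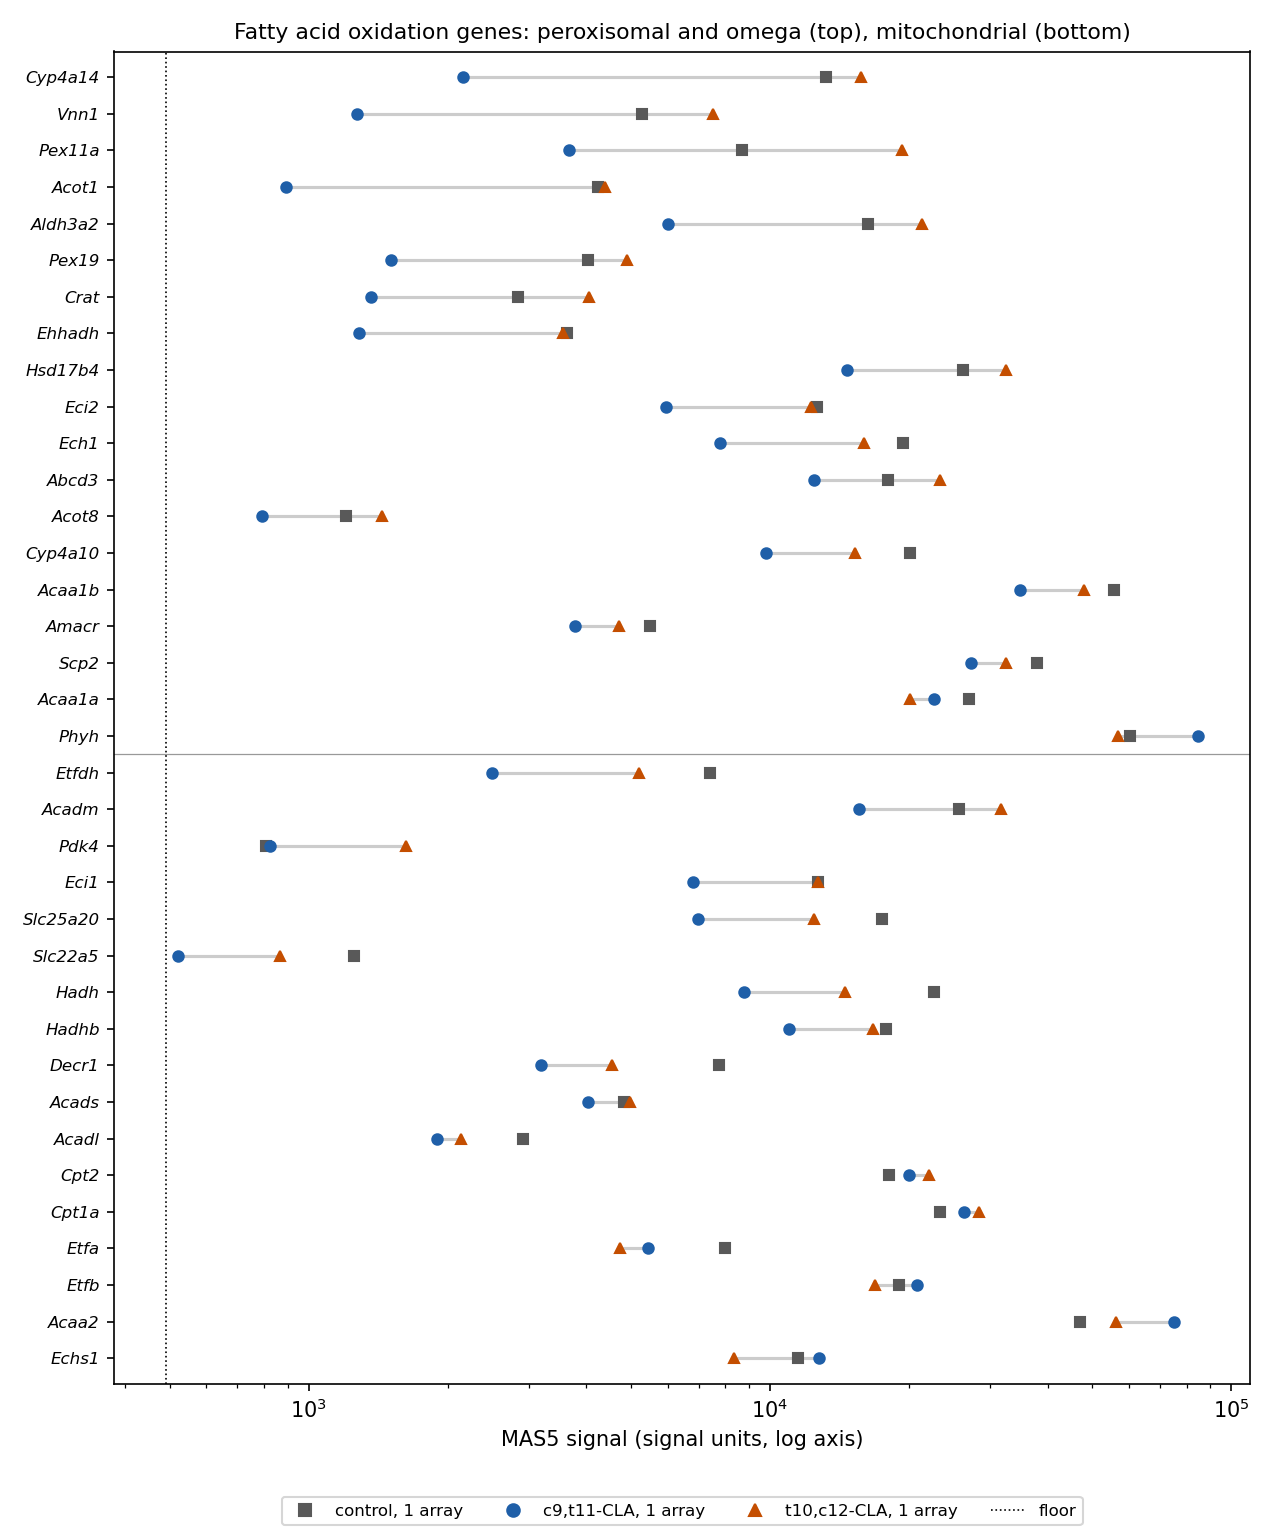
MAS5 signal on a log axis for the 19 measured peroxisomal and omega oxidation genes and the 17 measured mitochondrial genes, 1 point for each array (grey square control, blue circle c9,t11-CLA, orange triangle t10,c12-CLA). The blue point is the lowest of the 3 in 17 of the 19 genes of the upper block, and in Cyp4a14 it stands at 2161 against 15776 for the orange point. How often the c9,t11-CLA signal is the lowest among all measured genes was not counted.

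The list of fatty acid synthesis and NADPH supply had a median of 0.59 over 11 measured genes, with 3 past 2-fold upwards and 0 downwards, against 3.47% and 2.56% of all measured genes. Me1, malic enzyme, gave 951 with c9,t11-CLA and 3834 with t10,c12-CLA, with 2029 on control. Tkt and Pgd, of the pentose phosphate pathway, differed by 1.21 and 1.13, while Taldo1, of the same pathway, stood at 0.72 and Idh1, which also yields NADPH, at 0.20. Fasn, the fatty acid synthase, stood at 0.45, the regulator Srebf1 at -0.09, Thrsp at -0.04 and Acly, which makes cytosolic acetyl-CoA, at -0.13. Among desaturases and elongases, Scd1, the stearoyl-CoA desaturase, gave 56945 and 53780 with c9,t11-CLA and t10,c12-CLA, a difference of -0.08 that was 0.42 after quantile normalization. Elovl5, the elongase of polyunsaturated fatty acids, differed by 1.18 and Hsd17b12, the ketoacyl reductase of the elongation cycle, by 1.27, whereas Elovl1, an elongase of very long chains, stood at -1.52.

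Genes of triglyceride storage showed little difference between the isomers. Over 14 measured genes the median was 0.10. Past 2-fold was 1 gene, against 3.47% of all measured genes higher, namely Mgll, the monoglyceride lipase, at 1.45. Lpin1, a phosphatidate phosphatase, gave 7994 and 7588 with c9,t11-CLA and t10,c12-CLA and 3117 on control. Pnpla2, the triglyceride lipase, gave 15840 and 16107, with 6807 on control. G0s2, the inhibitor of that lipase, gave 1441 and 2065, with 7089 on control. In these 3 genes the CLA arrays lay close together and apart from the control array. Cidec, a protein of large lipid droplets, was above the floor on the t10,c12-CLA array alone, at 905 against 39 with c9,t11-CLA and 44 on control, and was at least 1.85-fold higher. Among 12 measured genes of uptake, binding and activation the median was 0.30. The acyl-CoA binding protein Dbi stood at 0.94, the intestinal-type fatty acid binding protein Fabp2 at 1.04 (0.98 after quantile normalization) and the liver-type Fabp1 at 0.05.

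Glutathione transferases, which couple glutathione to reactive compounds, differed widely in both directions, with 3 of 14 at least 2-fold higher, 1 at least 2-fold lower, against 3.47% and 2.56% of all measured genes, and a median of -0.12, or 0.01 after quantile normalization. Gstm2 had the largest difference of all measured genes, with 766 on the c9,t11-CLA and 14642 on the t10,c12-CLA array, 2661 on control and a log2 difference of 4.26. Its second probe set gave 1984 and 1786, a difference of -0.15. Gstm3 differed by 1.23, and by 2.09 in its second probe set. Mgst3, a microsomal family member, gave 705 and 4335, with 1593 on control. Gstm6 was above the floor on the t10,c12-CLA array alone, at least 5.01-fold higher, and its other probe set stood at 0.67. Gstm1 went the other way at -1.87, while its second probe set stood at -0.08. The mu-class genes are close in sequence, the chosen probe sets of Gstm1 and Gstm3 carry a mark for possible cross-hybridisation, and how their signals divide among the members was not tested.

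Cytochromes P450 of foreign compounds and steroids were lower more often than higher in the signals as deposited. Of 18 measured genes of that list, which also holds Alas1, the first enzyme of haem synthesis, 15 were lower with t10,c12-CLA, 4 at least 2-fold, and 1 was 2-fold higher, against 2.56% and 3.47% of all measured genes. The median was -0.30. After quantile normalization it was -0.11, with 11 of 18 lower. Of all 4382 measured genes, 2377 were lower in the signals as deposited. Cyp2b10, a target of the xenobiotic receptor CAR, gave 13715 with c9,t11-CLA, 3056 with t10,c12-CLA and 1428 on control. Cyp2e1, the ethanol-oxidising cytochrome, gave 39035, 13411 and 3022 in the same order. For both genes the CLA arrays lay above control, the c9,t11-CLA array further. Cyp2c39, a retinoic acid hydroxylase, was the gene past 2-fold in the other direction, at 1.34, and Cyp3a11 stood at -0.14, or 0.35 after quantile normalization.

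Acute phase plasma proteins were lower with t10,c12-CLA. Of 21 measured genes, 18 were lower, and 8 were past 2-fold downwards and 0 upwards, against 2.56% and 3.47% of all measured genes, and the median was -0.78. These are bright genes: after quantile normalization the median was -0.51, 15 of 21 were lower and 6 were at least 2-fold lower. Hp, haptoglobin, which binds free haemoglobin, gave 64189 with c9,t11-CLA and 7859 with t10,c12-CLA, with 9575 on control, an 8.17-fold lower signal. Apcs, serum amyloid P, gave 21273 and 7106, with 7860 on control. Fgb, the fibrinogen beta chain, gave 28270 and 9970, with 16534 on control. Hamp, the iron hormone hepcidin, gave 18095 and 6504, with 14876 on control. In Hp and Apcs the t10,c12-CLA array was close to control and the c9,t11-CLA array stood apart, whereas in Hamp the t10,c12-CLA array was the one away from the others. Itih4, a protein of the inter-alpha-trypsin inhibitor family, differed by -1.28 and Saa3 by -1.34.

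Members of the acute phase list did not all differ. Saa2 stood at -1.07, a bright signal of 108255 and 51650, and at -0.40 after quantile normalization, but a second and dimmer probe set gave 28185 and 4988, a difference of -2.50. Lcn2, which withholds iron from bacteria, stood at -0.04 (0.13 after quantile normalization), Orm2, an orosomucoid, at 0.29, the fibrinogen alpha chain Fga at 0.12 and Crp at 0.38. Lcn2 and Orm2 were well above control on both CLA arrays, at 30522 and 29619 against 11679, and at 15502 and 18891 against 5840. Upstream of these genes, 11 receptor and signalling genes were measured, with a median of -0.30, 7 lower and 4 higher. Past 2-fold were 2, both lower, against 2.56% of all measured genes. Lifr, the receptor for leukaemia inhibitory factor, differed by -1.96, and its other probe sets stood at -2.03 and -0.98. Il6ra, the interleukin 6 receptor, stood at -1.08 (3864 and 1825, 1540 on control), its co-receptor Il6st at -0.02 and Stat3 at -0.42. Socs3, a feedback inhibitor induced by STAT3, was above the floor with c9,t11-CLA alone, at 806 against 438, with 345 on control.

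The promoters of the acute phase and male-biased genes were searched for TTCNNNGAA, the palindrome recognised by STAT factors, and a direct repeat of AGGNCA with 1 base between the copies, recognised by PPARA with RXR and by HNF4A. RefSeq windows of GRCm38.p6 from 250 bases before to 50 bases after the gene start were read on both strands. The STAT palindrome was found in 5 of 17 acute phase genes with a window, compared with 8.00% of 3574 measured genes with a window and 9.55% of all 27025 genes with one. Of these 5 genes, Hamp, Fgb, Apcs and Itih4 were at least 2-fold lower with t10,c12-CLA and Fga was not. At least 2-fold lower in the whole acute phase list were 8 of 21 measured genes, against 2.56% of all measured genes. Genes without a match were not counted by size of difference, and a link between match and difference was not tested. Below are the 250 upstream bases of the 5 genes, 5′ to 3′ in the direction of the gene with the match in capitals.
Hamp, GRCm38.p6 chr7:30944030-30944279, minus strand: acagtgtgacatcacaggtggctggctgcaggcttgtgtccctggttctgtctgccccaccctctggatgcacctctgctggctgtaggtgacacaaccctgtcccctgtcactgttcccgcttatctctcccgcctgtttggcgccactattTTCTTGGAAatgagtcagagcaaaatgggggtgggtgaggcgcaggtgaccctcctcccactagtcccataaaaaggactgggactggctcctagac
Fgb, GRCm38.p6 chr3:83049864-83050113, minus strand: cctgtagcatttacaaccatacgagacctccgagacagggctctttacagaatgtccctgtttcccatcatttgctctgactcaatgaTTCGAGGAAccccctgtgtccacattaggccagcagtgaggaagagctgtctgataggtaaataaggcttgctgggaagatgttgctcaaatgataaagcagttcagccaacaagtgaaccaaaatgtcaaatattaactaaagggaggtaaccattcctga
Apcs, GRCm38.p6 chr1:172895055-172895304, minus strand: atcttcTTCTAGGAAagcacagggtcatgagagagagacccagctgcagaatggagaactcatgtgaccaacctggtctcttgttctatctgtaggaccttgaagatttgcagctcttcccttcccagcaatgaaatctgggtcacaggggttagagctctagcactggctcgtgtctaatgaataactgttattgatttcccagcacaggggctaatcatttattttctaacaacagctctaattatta
Itih4, GRCm38.p6 chr14:30886226-30886475, plus strand: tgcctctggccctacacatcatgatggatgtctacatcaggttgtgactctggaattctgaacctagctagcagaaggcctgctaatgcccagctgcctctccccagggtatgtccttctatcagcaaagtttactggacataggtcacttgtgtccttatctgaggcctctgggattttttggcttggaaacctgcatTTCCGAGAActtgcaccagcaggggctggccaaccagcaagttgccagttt
Fga, GRCm38.p6 chr3:83025903-83026152, plus strand: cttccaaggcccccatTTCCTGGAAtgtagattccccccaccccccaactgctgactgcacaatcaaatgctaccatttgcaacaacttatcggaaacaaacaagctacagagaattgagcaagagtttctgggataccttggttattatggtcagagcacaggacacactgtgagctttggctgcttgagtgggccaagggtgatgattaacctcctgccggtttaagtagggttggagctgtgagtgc
The match began 97 bases before the start in Hamp, 162 in Fgb, 244 in Apcs, 51 in Itih4 and 234 in Fga. It was absent from this window in Hp among others. A match of these letters is a description and not a measured binding site.

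The direct repeat was present in 0.45% of measured genes with a window and in none of 12 peroxisomal and omega oxidation genes and 16 mitochondrial genes on the array with a window. At so low a share, no match in so few genes was the likely outcome. Sites with other letters or further upstream were not searched. Among 7 male-biased genes it was found in Cyp2d9 alone and the STAT palindrome in Keg1 alone, shown here with the matches in capitals, since both genes were past 2-fold and are described next.
Keg1, GRCm38.p6 chr19:12695540-12695789, plus strand: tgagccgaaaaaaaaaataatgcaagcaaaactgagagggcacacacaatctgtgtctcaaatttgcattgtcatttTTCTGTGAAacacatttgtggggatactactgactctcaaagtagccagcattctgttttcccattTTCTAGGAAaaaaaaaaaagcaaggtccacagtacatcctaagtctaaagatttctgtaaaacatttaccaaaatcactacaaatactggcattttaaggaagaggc
Cyp2d9, GRCm38.p6 chr15:82452127-82452376, plus strand: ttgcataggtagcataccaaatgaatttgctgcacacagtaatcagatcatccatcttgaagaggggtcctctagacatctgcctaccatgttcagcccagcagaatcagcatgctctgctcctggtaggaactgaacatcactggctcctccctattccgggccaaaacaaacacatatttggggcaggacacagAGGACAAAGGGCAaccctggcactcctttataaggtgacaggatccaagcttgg

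Genes with higher expression in male liver had the lowest median of the lists, -1.43 over 8 measured genes, all of them lower with t10,c12-CLA and 5 at least 2-fold, against 2.56% of all measured genes; after quantile normalization the median was -1.47, with 6 of 8 lower and 5 past 2-fold. Cyp7b1, the oxysterol and steroid 7-alpha-hydroxylase, gave 25809 with c9,t11-CLA and 3023 with t10,c12-CLA, with 11297 on control, and a second probe set stood at -2.39. Egfr, the epidermal growth factor receptor, gave 12221 and 2800, with 3368 on control, and its other probe sets stood at -2.37 and -1.39. Hsd3b2, of the 3-beta-hydroxysteroid dehydrogenase family, gave 3158 and 1050, with 3555 on control. Keg1, a glycine acyltransferase-like gene, gave 3039 and 753, with 2505 on control. Hsd3b5, the male-specific member of the Hsd3b family, gave 10059 with c9,t11-CLA and 171, below the floor, with t10,c12-CLA, with 7239 on control, and was at least 20.5-fold lower.

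For Hsd3b5, Hsd3b2 and Keg1 the t10,c12-CLA array was the one away from control, for Egfr the c9,t11-CLA array, and for Cyp7b1 the control signal lay between them. Cyp2d9, a male-specific steroid hydroxylase, gave 7322 and 3032, with 3766 on control, a difference of -1.27. The major urinary protein genes Mup3 and Mup5 stood at -0.34 and -0.14, and these were the genes that turned, to 0.14 and 0.21, after quantile normalization. A second probe set of Mup3 stood at -1.34, and the Mup genes are close copies that these probe sets may not separate. Gstp1 stood at -0.78, or -0.08 after quantile normalization. Female-biased genes could not be described as a group, since 7 of 9 on the array were at or below the floor on both CLA arrays. The 2 measured ones were also lower with t10,c12-CLA, Cyp2b10 at -2.17 and Cyp17a1 at -0.12. The growth hormone and IGF axis had a median of -0.43 over 12 measured genes, none past 2-fold. Ghr, the growth hormone receptor, stood at -0.41, Igf1 at -0.27 and the feedback inhibitor Socs2 at -0.80.

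**Figure D3:**
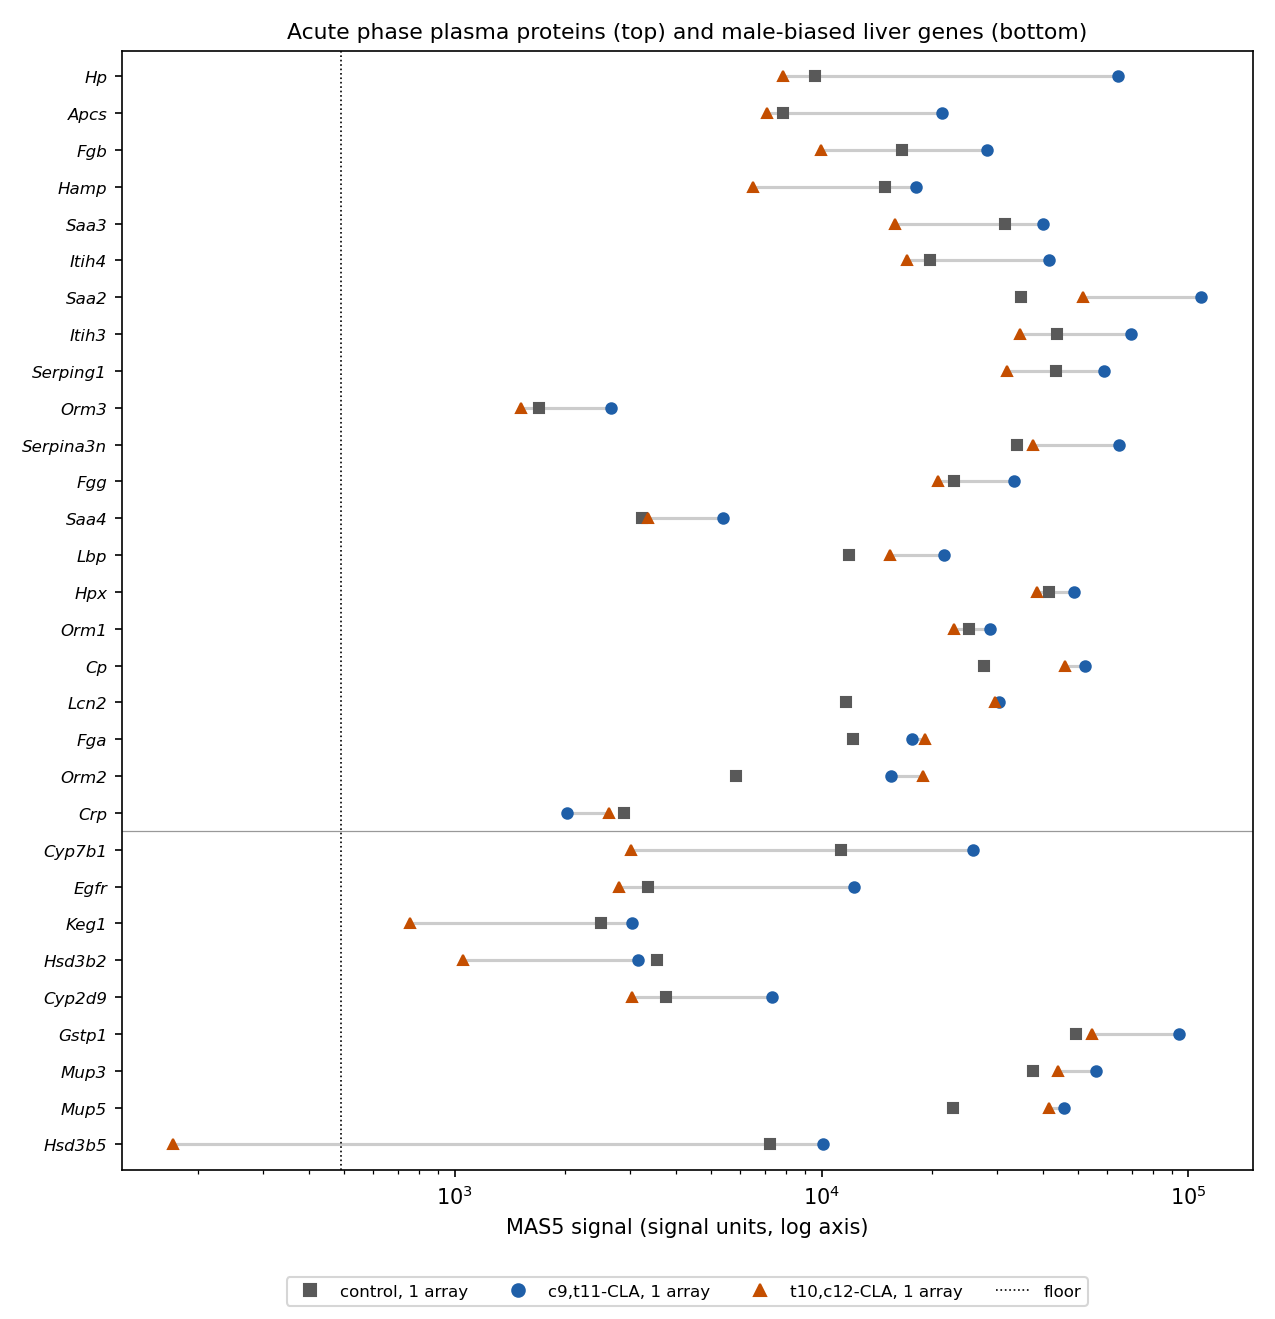
MAS5 signal on a log axis for the 21 measured acute phase genes, the 8 measured male-biased genes and Hsd3b5, 1 point for each array (grey square control, blue circle c9,t11-CLA, orange triangle t10,c12-CLA). The blue point lies to the right of the orange point in 18 of the 21 acute phase genes and in all 9 male-biased genes, although after quantile normalization 15 of the 21 and 6 of the 8 measured male-biased genes were lower with t10,c12-CLA; the dotted line is the floor at 490.3.

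Other proteins that hepatocytes secrete were also lower with t10,c12-CLA in the signals as deposited, but not every group stayed so after quantile normalization. The constitutive plasma proteins had a median of -0.46 over 17 genes, with 14 lower. After quantile normalization the median of these proteins was -0.01, with 10 lower and 6 higher. Within them Alb, albumin, gave 101163 and 31244, with 28437 on control, a difference of -1.70 that was -1.11 after quantile normalization. Ttr, transthyretin, went the other way at 1.21 (9385 and 21645, 17983 on control). Complement and coagulation factors showed a median of -0.49 over 17 genes, with 14 lower. Of these 1 was past 2-fold, against 2.56% of all measured genes. After quantile normalization the median was -0.46, with none past 2-fold. Serpind1, heparin cofactor II, stood at -1.01, or -0.81 after quantile normalization, the complement factor C9 at -0.99 and the plasmin inhibitor Serpinf2 at -0.97. Enzymes of amino acid breakdown and the urea cycle showed a median of -0.58 over 19 genes, with 16 lower, and -0.25 after quantile normalization. The urea cycle enzyme Cps1 stood at -0.76, or -0.12 after quantile normalization. Oat, ornithine aminotransferase, stood at 1.00, or 0.96 after quantile normalization.

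Apolipoprotein genes did not share a direction. Over 20 measured genes of lipoprotein metabolism the median was -0.23, with 1 gene past 2-fold, downwards, against 2.56% of all measured genes. After quantile normalization the median was -0.07, with 1 gene past 2-fold, upwards. Apoa2, of high-density lipoprotein, was the first of these, at -1.02, or -0.74 after quantile normalization. Apoc2, the activator of lipoprotein lipase, was the other, at 0.91 and 1.19. Apoa4 stood at -0.87, or -0.34 after quantile normalization, and Apob at -0.16. Apoe, the disrupted gene, still gave 8695 with c9,t11-CLA, 4288 with t10,c12-CLA and 6570 on control. The position of its probe set relative to the disruption was not analysed here, so the signal does not check the genotype. Cholesterol synthesis had a median of -0.01 over 8 measured genes, and no gene was past 2-fold. Bile acid genes had a median of -0.17 over 13, with Cyp7b1, already described, as the gene past 2-fold and Cyp7a1, the first enzyme of the classic pathway, at -0.42.

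Markers of stellate cells and fibroblasts, the matrix-producing cells of the liver, were higher with t10,c12-CLA. Of 16 measured genes, 14 were higher and 6 of these past 2-fold, and no gene was 2-fold lower, against 3.47% and 2.56% of all measured genes, and the median was 0.66, or 0.71 after quantile normalization. The basement membrane collagens Col4a1 and Col4a2 gave 1056 and 1507 with c9,t11-CLA and 3140 and 3220 with t10,c12-CLA, with 1867 and 1452 on control. Timp1, an inhibitor of matrix proteases, gave 777 and 2266, with 1717 on control. Lum, the proteoglycan lumican, differed by 1.27 and Tagln, a smooth muscle actin-binding protein, by 1.05. Col1a1 stood at 0.75, and at 2.01 in its second probe set. Pdgfra, a platelet-derived growth factor receptor, differed by 1.69, but its second probe set went the other way, with 1063 and 532 and 159 on control. Col3a1 was above the floor with t10,c12-CLA alone, at least 2.61-fold higher, while Col1a2 and Dcn, a fibrillar collagen chain and the proteoglycan decorin, stood at 0.12 and 0.23. The summed signal of the 26 genes on the array was 51699 with c9,t11-CLA, 77411 with t10,c12-CLA and 59954 on control.

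Markers of Kupffer cells and other macrophages were higher in 15 of 16 measured cases, 2 of them at least 2-fold against 3.47% of all measured genes, with a median of 0.70. C1qc, a chain of complement C1q, gave 11141 and 23148, with 12400 on control, and its partners C1qa and C1qb differed by 0.67 and 0.76, although a second and dimmer probe set of C1qb stood at -0.83. Laptm5, a lysosomal protein of leukocytes, gave 2437 and 6241, with 4539 on control. Cd68 stood at 0.75, Mpeg1 at 0.89 and Cd5l, a secreted macrophage protein, at 0.97. Adgre1, the F4/80 antigen, stood at 0.05 and the C-type lectin Clec4f at -0.46. The summed signal of the 27 genes on the array was 91130 with c9,t11-CLA, 143692 with t10,c12-CLA and 111319 on control. MHC class II genes, which present antigen on macrophages and B cells, had a median of 0.53 over 6 genes, with H2-DMb1 at 1.46.

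Hepatocyte markers went the other way in 11 of 12 cases, with a median of -0.66 that was -0.26 after quantile normalization. Their summed signal, as deposited and not quantile normalized, was 534782 with c9,t11-CLA, 305473 with t10,c12-CLA and 321600 on control. The bright spike control CreX-5, which is not a liver transcript, was lower too, with 53130 on the c9,t11-CLA and 31068 on the t10,c12-CLA array. The dimmer spike control BioB-M gave 3184 and 3501 in the same order. The part of array brightness in these sums was not tested. In whole liver RNA, fewer cells of a type and less RNA per cell cannot be told apart, and the part of cell composition in the differences above was not tested. Endothelial markers had a median of 0.46 over 7 measured genes, 4 higher and 3 lower, with Fcgr2b, an inhibitory Fc receptor, at 534 and 1144 and Pecam1 at -0.19. Neutrophil markers had a median of -0.69 over 3 measured genes. Of 12 on the array, 3 were above the floor with c9,t11-CLA alone and 0 with t10,c12-CLA alone. Over all 8251 genes on the array these counts were 553 and 417. Of 13 T and NK cell markers, 11 were at or below the floor on both CLA arrays. No more than 3 markers were measured for B cells, erythroid cells, bile duct cells, adipocytes, pancreas or skeletal muscle. No marker was listed at 0.

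**Figure D4:**
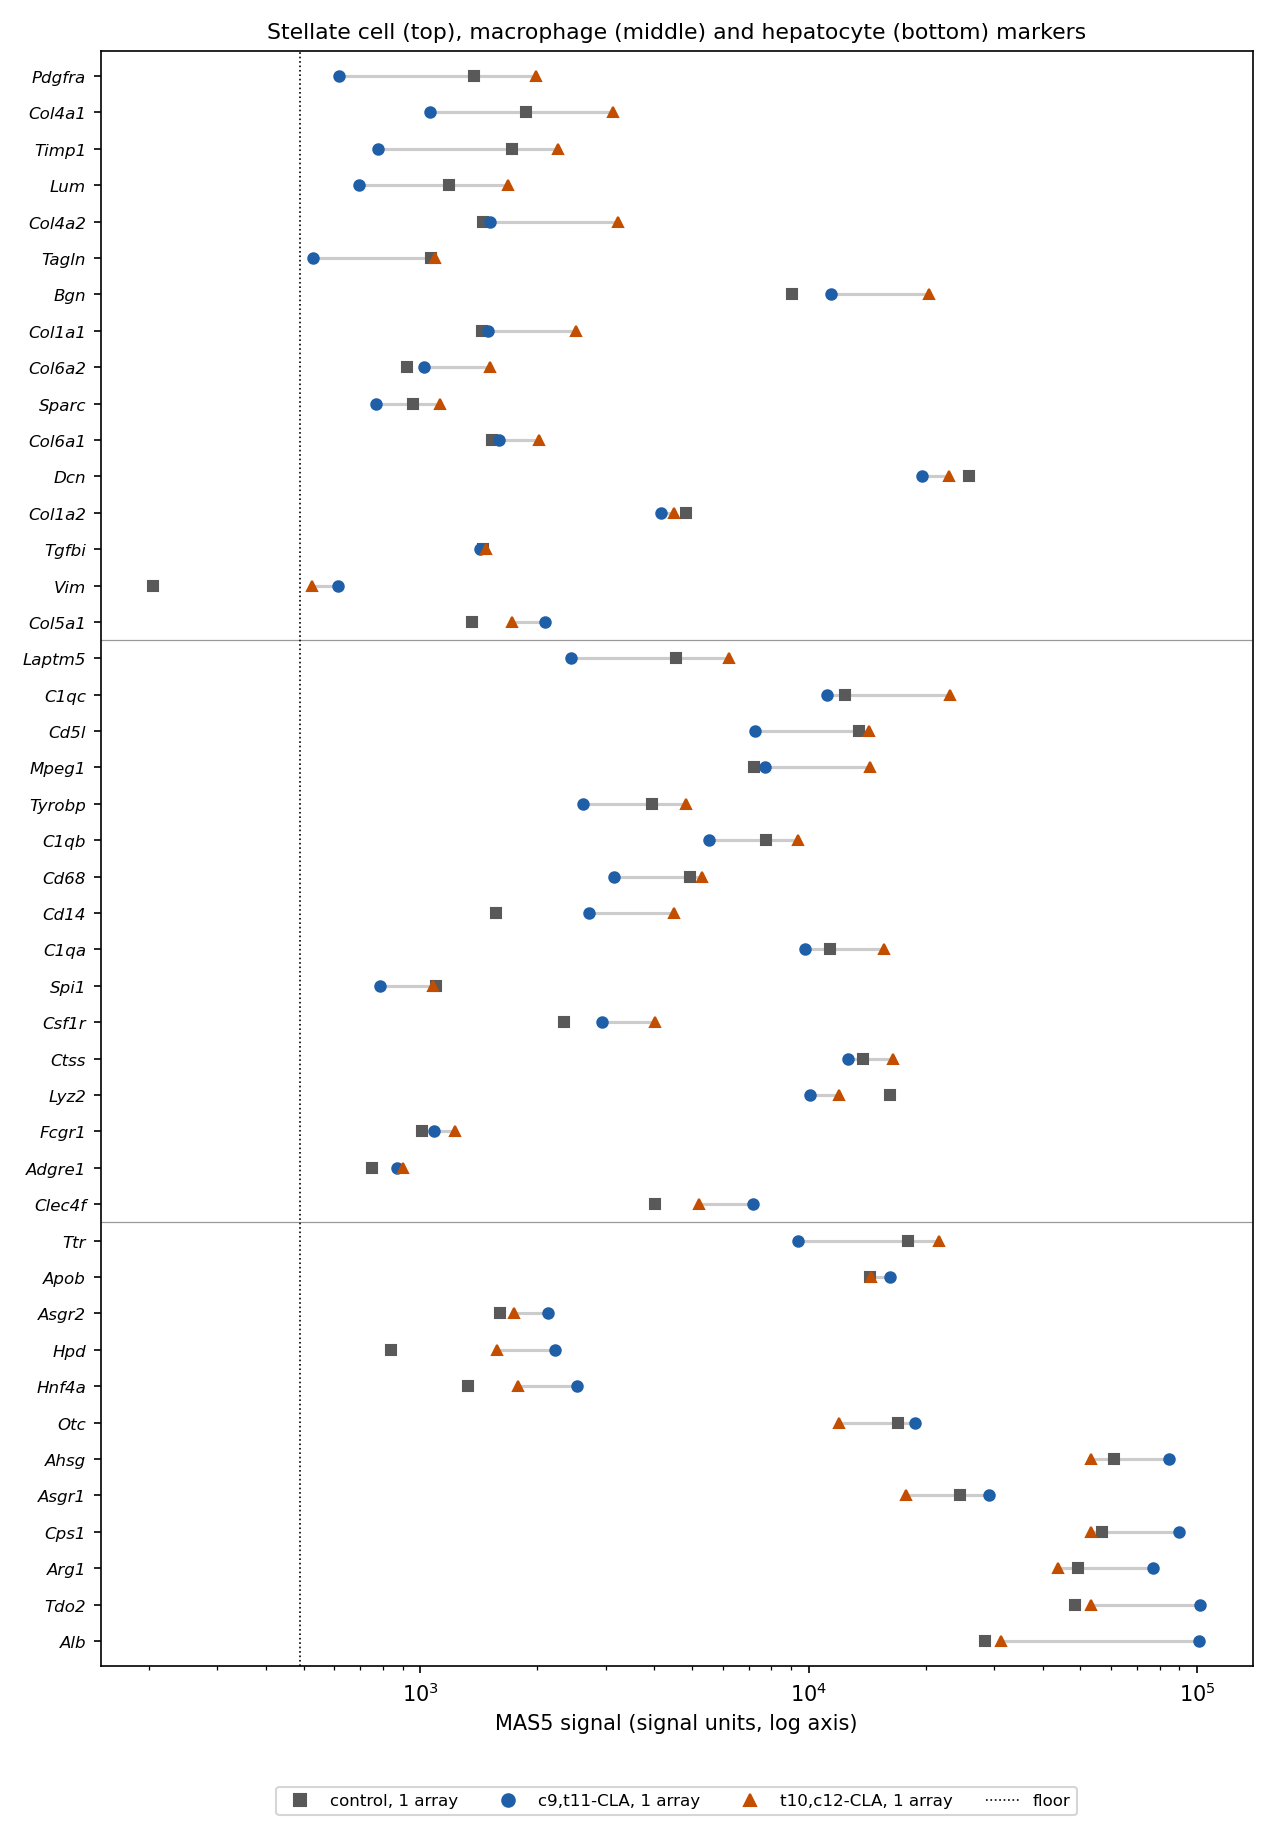
MAS5 signal on a log axis for the measured markers of stellate cells (16), macrophages (16) and hepatocytes (12), 1 point for each array (grey square control, blue circle c9,t11-CLA, orange triangle t10,c12-CLA). The orange point lies to the right of the blue one in 14 stellate and 15 macrophage markers and in 1 of the 12 hepatocyte markers, Ttr.

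Several of the largest differences towards t10,c12-CLA belonged to genes of membranes and the cytoskeleton outside these lists. Anxa2 and Anxa5, calcium-dependent binders of membrane phospholipids, gave 1617 and 1217 with c9,t11-CLA and 8180 and 5306 with t10,c12-CLA, with 2994 and 1465 on control. In both the t10,c12-CLA array stood apart. The 6 measured annexins ran from 0.01 for Anxa6, which was -0.05 after quantile normalization, to 2.34 for Anxa2. The galectin Lgals1 differed by 1.78, the tetraspanin Cd63 by 1.84, Mfge8, a bridge for the uptake of dying cells, by 1.64 and the macrophage elastase Mmp12 by 1.90, or 0.73 in its other probe set. Among 24 lysosomal genes the median was 0.32, 18 were higher and 3 at least 2-fold, against 3.47% of all measured genes. These 3 were Arsa, an arylsulfatase, at 2.20, Cd63, and Lipa, the lysosomal acid lipase, at 1.56. Tubb2a, a beta-tubulin, differed by 2.44, but its second and dimmer probe set stood at -0.21, and over the 4 tubulins with an unmarked probe set the median was -0.09 against 0.42 over 10. The annexin, lysosomal and tubulin lists, and Lgals1, Mfge8 and Mmp12, were chosen after their values were seen.

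Further genes lay at the extremes. Psmd1, a proteasome subunit, gave 2434 and 11352, with 7048 on control, while the other 33 measured proteasome subunits lay between -0.97 and 0.64 and the list had a median of 0.11. Uqcc1, which helps to assemble respiratory complex III, gave 533 with c9,t11-CLA, close to the floor, 2255 with t10,c12-CLA and 4887 on control. The 62 measured subunits of oxidative phosphorylation had a median of -0.08. None was 2-fold higher and 2 were at least 2-fold lower, against 3.47% and 2.56% of all measured genes. Stx2, a vesicle fusion protein, differed by 2.17 and Krtap5-1, a keratin-associated protein, by 2.15. In the lower direction Ces1c, a secreted carboxylesterase, differed by -1.90, Hsd17b2, a steroid dehydrogenase, by -1.84 and Nppa, the precursor of atrial natriuretic peptide, by -1.61. Snrp1c-ps2 at -2.36, Tradd, an adaptor of the tumour necrosis factor receptor, at -2.07 and the histone gene H3c14 at -1.66 rested on marked probe sets.

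A further 417 genes were above the floor with t10,c12-CLA alone and 553 with c9,t11-CLA alone. Ly6d gave 277 with c9,t11-CLA, 9336 with t10,c12-CLA and 1589 on control, at least 19.0-fold higher. Krt81, a hair keratin, was at least 6.31-fold higher, 2210016F16Rik at least 4.44-fold and Prp2 at least 4.36-fold. In the other direction Tff3, a secreted trefoil peptide, gave 5219 with c9,t11-CLA, 244 with t10,c12-CLA and 821 on control, at least 10.6-fold lower. The pseudogene Saa-ps was at least 5.33-fold lower, Pcgf2, a polycomb protein, at least 4.72-fold and Bdkrb1, a bradykinin receptor, at least 3.78-fold. The probe sets of Prp2 and Saa-ps are marked ones.

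Cytosolic ribosomal proteins had a median of -0.13 over 26 genes and heat shock proteins one of 0.24 over 9, with no gene of either past 2-fold. Genes of the endoplasmic reticulum had a median of -0.40 over 18, with the chaperones Dnajb11 at -1.27 and Hspa5 at -1.05. Circadian clock genes had one of -0.38 over 12 and interferon-stimulated genes one of -0.43 over 10, with none past 2-fold. Immediate early genes had a median of 0.36 over 11, with Klf6, a zinc-finger transcription factor, at 1.18. Glucose production and insulin signalling had a median near that of all genes, with Pck1, the cytosolic phosphoenolpyruvate carboxykinase, at -1.01 (-0.98 after quantile normalization), Igfbp1 at 0.91 and G6pc at 0.54. Of the genes past 2-fold, 112 of 152 higher and 80 of 112 lower were in none of the 48 lists drawn up for the tissue. Those lists held 568 of the 4382 measured genes, 40 of the 152 higher and 32 of the 112 lower. A second measured probe set existed for 16 of the genes at least 2-fold higher and pointed the same way in 7, and for 10 of those at least 2-fold lower, the same way in 7. That second probe set was itself past 2-fold in the same direction in 2 of the 16 and 4 of the 10.

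**Figure D5:**
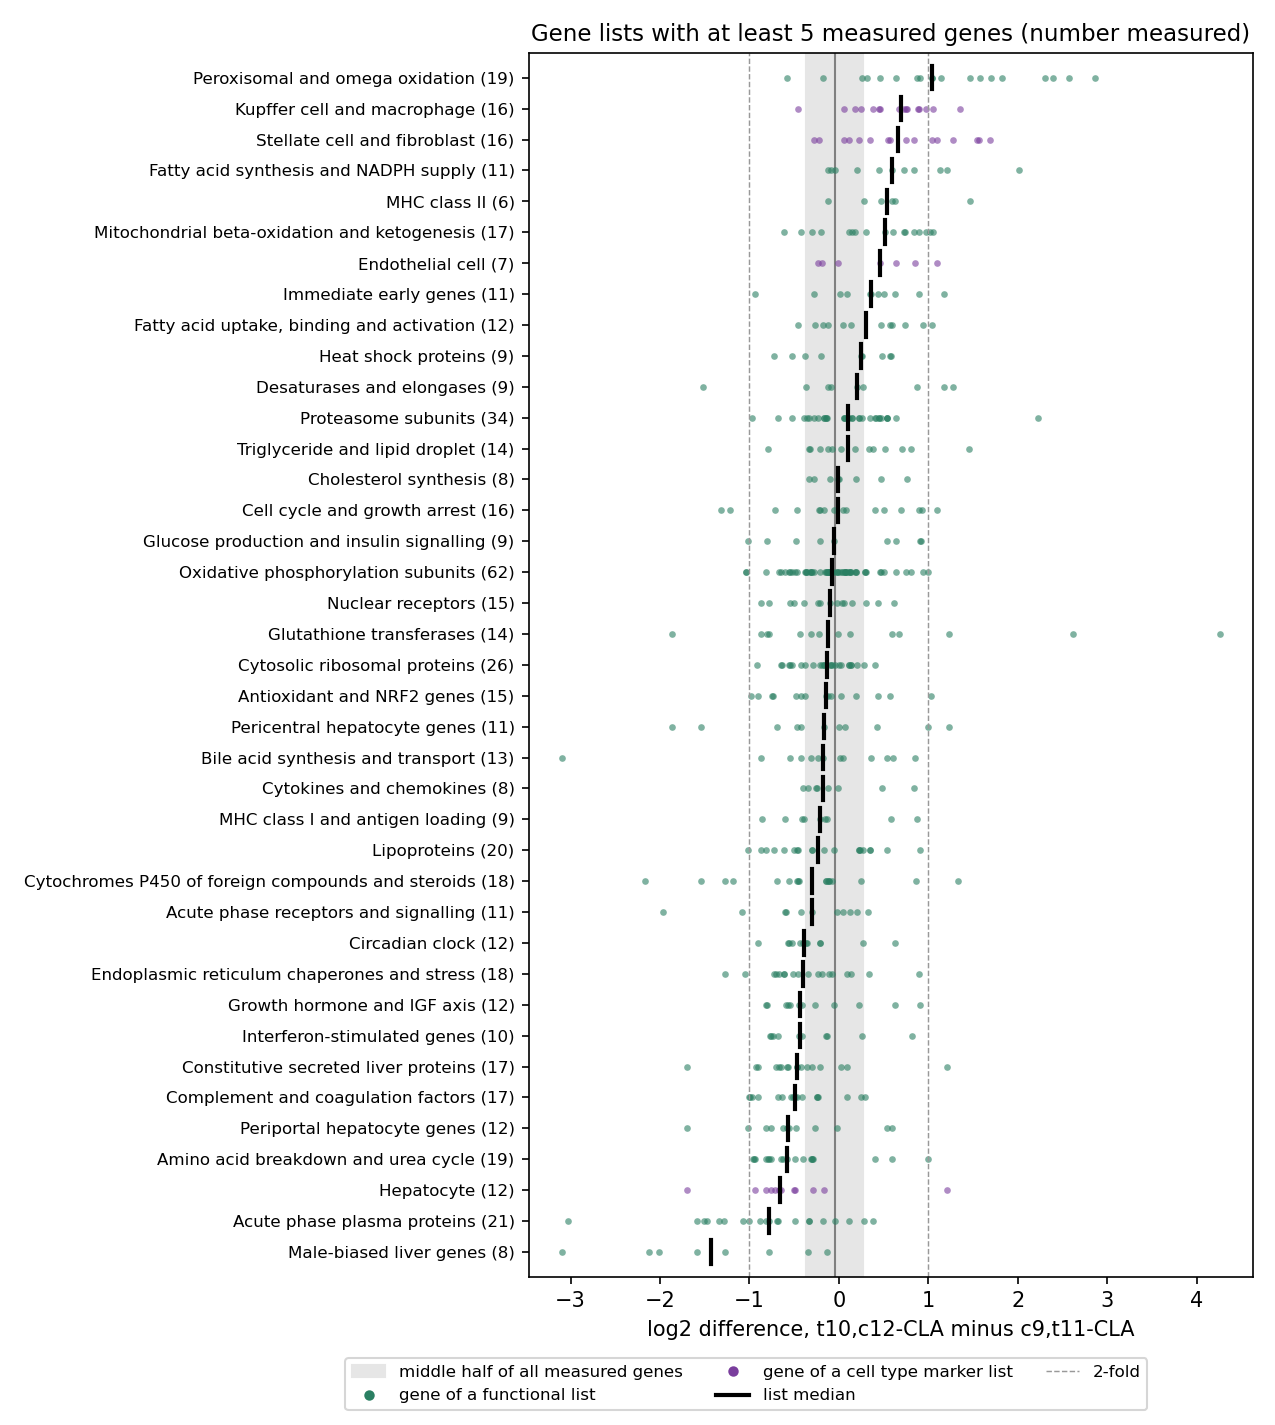
Log2 difference (t10,c12-CLA minus c9,t11-CLA) of each measured gene, by list, for lists with at least 5 measured genes; black bars are list medians, the grey band spans the quartiles of all measured genes and dashed lines mark 2-fold. Medians run from -1.43 for male-biased genes to 1.04 for peroxisomal and omega oxidation.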

How the data were processed

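Liver RNA was hybridised to Affymetrix mouse arrays, 1 for each diet, and the deposited intensity of a probe set is a MAS5 signal on a linear scale, per the submitters' processing notes. No MAS5 version is given in the sources used here. Signals were used as deposited, since the 2%-trimmed means of the arrays were equal. Of 12488 probe sets, 66 array controls, 396 with several symbols and 1193 without a symbol in the annotation used were left out. The other 10833 were named through the Entrez identifier in RefSeq (GRCm38.p6). Where a gene had several probe sets, the brightest by mean log2 signal of all 3 arrays stood for it. Genes past 2-fold were counted. Probe sets are called marked where the maker's suffix says that their probes are shared between transcripts or fall short of its design rules. The number of arrays limits the precision.

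Named were the 15 largest differences in each direction among measured genes with a signal of at least 2 times the floor on 1 CLA array, the 5 largest at-least-fold values in each direction, the 4 largest of each list, and members that define a list. The genes and lists were chosen with earlier results of these data known. Alternatives covered scaling, the floor, a pseudocount, and the choice of probe sets. Python 3.11.15, numpy 2.4.6, pandas 2.3.3, scipy 1.17.1 and matplotlib 3.10.9 were used, and the counting was tested on simulated data.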

Additional observations from a re-analysis of the deposited data

How the results depend on the processing

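With a single array a diet, the closing values show how the processing alone moves the results. The count of genes at least 2-fold higher was 152 and of genes at least 2-fold lower 112; these became 425 and 394 with the floor at the pooled 25th percentile and 60 and 42 when it was set at the 75th. Equal medians of the arrays gave 207 higher and 69 lower. Of 247 measured genes named in the text or by the naming rule, 19 turned sign under at least 1 alternative, 0 of them past 2-fold as reported. No alternative replaced each probe set by the second one of its gene. Among all 26 genes past 2-fold with a second measured probe set, it pointed the same way in 14. The turned genes with the largest reported differences were C1qb (0.76, and -0.03 as a mean over its probe sets), Srxn1 (-0.75, and 0.72 without marked probe sets), Phyh (-0.58, and 0.16 after quantile normalization) and Acaa2 (-0.42, and 0.24 after quantile normalization).

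Medians of the main gene lists that moved by more than their yardstick error (the probe-set SD over the root of the number of genes) are grouped by setting. After quantile normalization they were -0.51 for acute phase proteins, -0.25 for amino acid breakdown, -0.011 for constitutive secreted proteins, -0.26 for hepatocyte markers and 0.36 for mitochondrial beta-oxidation. Restricted to the same genes, an alternative chosen after seeing the data, mitochondrial beta-oxidation was 0.46. With the floor at the 75th percentile they were 0.30 for mitochondrial beta-oxidation, 0.33 for fatty acid synthesis, -1.03 for male-biased genes and 0.23 for stellate markers. Without marked probe sets they were 1.31 for peroxisomal oxidation and -1.80 for male-biased genes. As a mean over all probe sets they were 0.52 for stellate and 0.57 for macrophage markers. Signs turned for bile acid genes (0.012, 75th percentile floor), oxidative phosphorylation (0.026, equal medians), neutrophil markers (0.019, 75th percentile floor, 1 gene) and tubulins (-0.088, without marked probe sets); their causes were not tested. No paired analysis was possible because each diet had 1 array.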
